A study of Mus musculus with 32 samples.

Results

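Nr5a2, Tfap2c, Rarg, Tead4, Yap1, Gata3, Gata4, Gata6, Cdx2 and Nfya are 10 genes for transcription factors of genome activation and of the first lineages of the mouse embryo. They were chosen by name, out of 46078 genes listed in each of the deposited total RNA and polyA RNA tables, and all 10 were found in both. Their RNA levels were followed in every group of a study of Dppa2 and Dppa4, which encode related nuclear proteins of oocytes, early embryos and germ cells. Collection was at 12 hours after fertilization for late 1-cell embryos and at 28 hours for late 2-cell embryos.

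In the sample names m is the maternal and z the zygotic allele of the gene of that arm. Total RNA of the Dppa2 arm came from m-z+ and m+z+ embryos at both stages, on a B6/DBA mixed background. Total RNA of the Dppa4 arm came from m-z+ and m+z+ embryos at both stages, on a B6 background. These were 8 groups of 2 libraries each. PolyA RNA of 2-cell embryos came from m-z- and m-z+ embryos of each arm, 3 libraries per group, and from WT embryos on a B6 background, 2 libraries, which the labels also describe as controls of the Dppa4 arm. A further 2 polyA libraries came from WT 1-cell embryos. The polyA libraries are described as single embryos. The sources used here do not give how the alleles were deleted or whether replicates were separate litters, so the spread between libraries may be partly technical.

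The early embryo starts on RNA stored in the oocyte, and most of that store is removed while the embryo's own genome is switched on, which in the mouse happens chiefly at the 2-cell stage. NFYA, the orphan nuclear receptor NR5A2, the retinoic acid receptor RARG and the AP-2 factor TFAP2C are known as DNA-binding factors of this period. TEAD4 and its coactivator YAP1, the end of the Hippo signalling pathway, and downstream of them CDX2 and GATA3, specify trophectoderm, the outer layer that forms placenta. GATA4 and GATA6 are known for primitive endoderm, an inner layer that forms later.

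The values are FPKM, fragments scaled to transcript length and library size, and no counts were used, so the depth of each library is unknown. FPKM summed to 412115 to 629583 per total RNA library and to 539978 to 675241 per polyA library. Stage labels matched stage markers: 9 marker genes of the 2-cell stage summed to 265 to 418 FPKM in the 2-cell total RNA libraries, against 5.76 to 20.6 FPKM in the 1-cell ones, and 9 oocyte and 1-cell markers to 498 to 1225 FPKM against 2060 to 2711 FPKM. Within the 2-cell stage, the oocyte and 1-cell sums did not overlap between some genotypes. In total RNA they were 789 to 809 FPKM in Dppa2 m-z+ and 498 to 577 FPKM in Dppa2 m+z+ embryos. In polyA RNA they were 3266 to 5228 FPKM in Dppa4 m-z- and 2680 to 3216 FPKM in Dppa4 m-z+ embryos. The same comparisons in the other arm overlapped, and the part of these sums in genotype differences was not tested. Sperm markers summed to at most 18.7 FPKM in any library. The 9 cumulus and granulosa markers summed to 6.56 to 11.1 FPKM in 2-cell and 4.60 to 9.46 FPKM in 1-cell total RNA, and to 19 to 49.8 FPKM in 2-cell polyA RNA, where 3 of the 9 (Foxl2, Fshr and Inha) were at 0 in all 14 libraries and Tnfaip6 reached 43.4 FPKM. In 1-cell total RNA, Dppa2 was 9.38 and 9.52 FPKM in Dppa2 m-z+ embryos, against 32.3 and 32.7 FPKM in m+z+ embryos, and Dppa4 was 1.13 and 0 FPKM for Dppa4 m-z+ embryos, against 4.37 and 6.92 FPKM in m+z+ embryos. At the 2-cell stage, when the zygotic allele can be transcribed, these groups overlapped for Dppa2 (44.8 and 59.2 against 49.7 and 53 FPKM) and for Dppa4 (25.5 and 20.3 against 30.1 and 17.6 FPKM). In polyA RNA, Dppa4 was 0, 0 and 0.149 FPKM for Dppa4 m-z- embryos, against 125 to 155 FPKM for Dppa4 m-z+ embryos. In the libraries labelled Dppa2 m-z-, however, Dppa2 RNA was 76.5, 130 and 155 FPKM, against 63.3, 87.4 and 92.4 FPKM in Dppa2 m-z+ embryos. Dppa2 RNA thus did not check that label, and whether the values come from a transcript that the deletion leaves in place cannot be told from FPKM per gene. The third library labelled Dppa2 m-z- stood apart, with the globin transcripts Hbb-bs at 378 FPKM and Hba-a1 at 532 FPKM, while Hbb-bs was at 0 in every other library. The 7 blood cell markers summed to 1584 FPKM in it and to at most 148 FPKM elsewhere. They also moved with stage: their sum was 4.58 to 14.8 FPKM in 2-cell and 0 to 0.184 FPKM in 1-cell total RNA, and 16.8 to 1584 FPKM in 2-cell and 0 to 0.101 FPKM in 1-cell polyA RNA.

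The 10 genes covered nearly the whole range of expression, as the plot of total RNA levels shows. Yap1 was the most abundant, at 272 to 343 FPKM in 2-cell total RNA and 187 to 210 FPKM in 1-cell total RNA, and stood above 98.4% of detected genes in every total RNA library. Nfya, Gata4, Nr5a2 and Tfap2c lay between 5.97 and 116 FPKM at either stage. Rarg and Tead4 lay below 1 FPKM in all 8 1-cell libraries and above 1 FPKM in all 8 2-cell libraries. Cdx2 and Gata6 never exceeded 1.79 FPKM in total RNA. A gene was tested if it reached 1 FPKM in at least 2 libraries, which all 10 did in total RNA (15068 genes tested) and 9 did in polyA RNA (18506 tested), where Cdx2 was listed at 0 in all 16 libraries. Rarg, Tead4, Cdx2 and Gata6 passed that filter through 2-cell libraries alone.

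**Figure D1:**
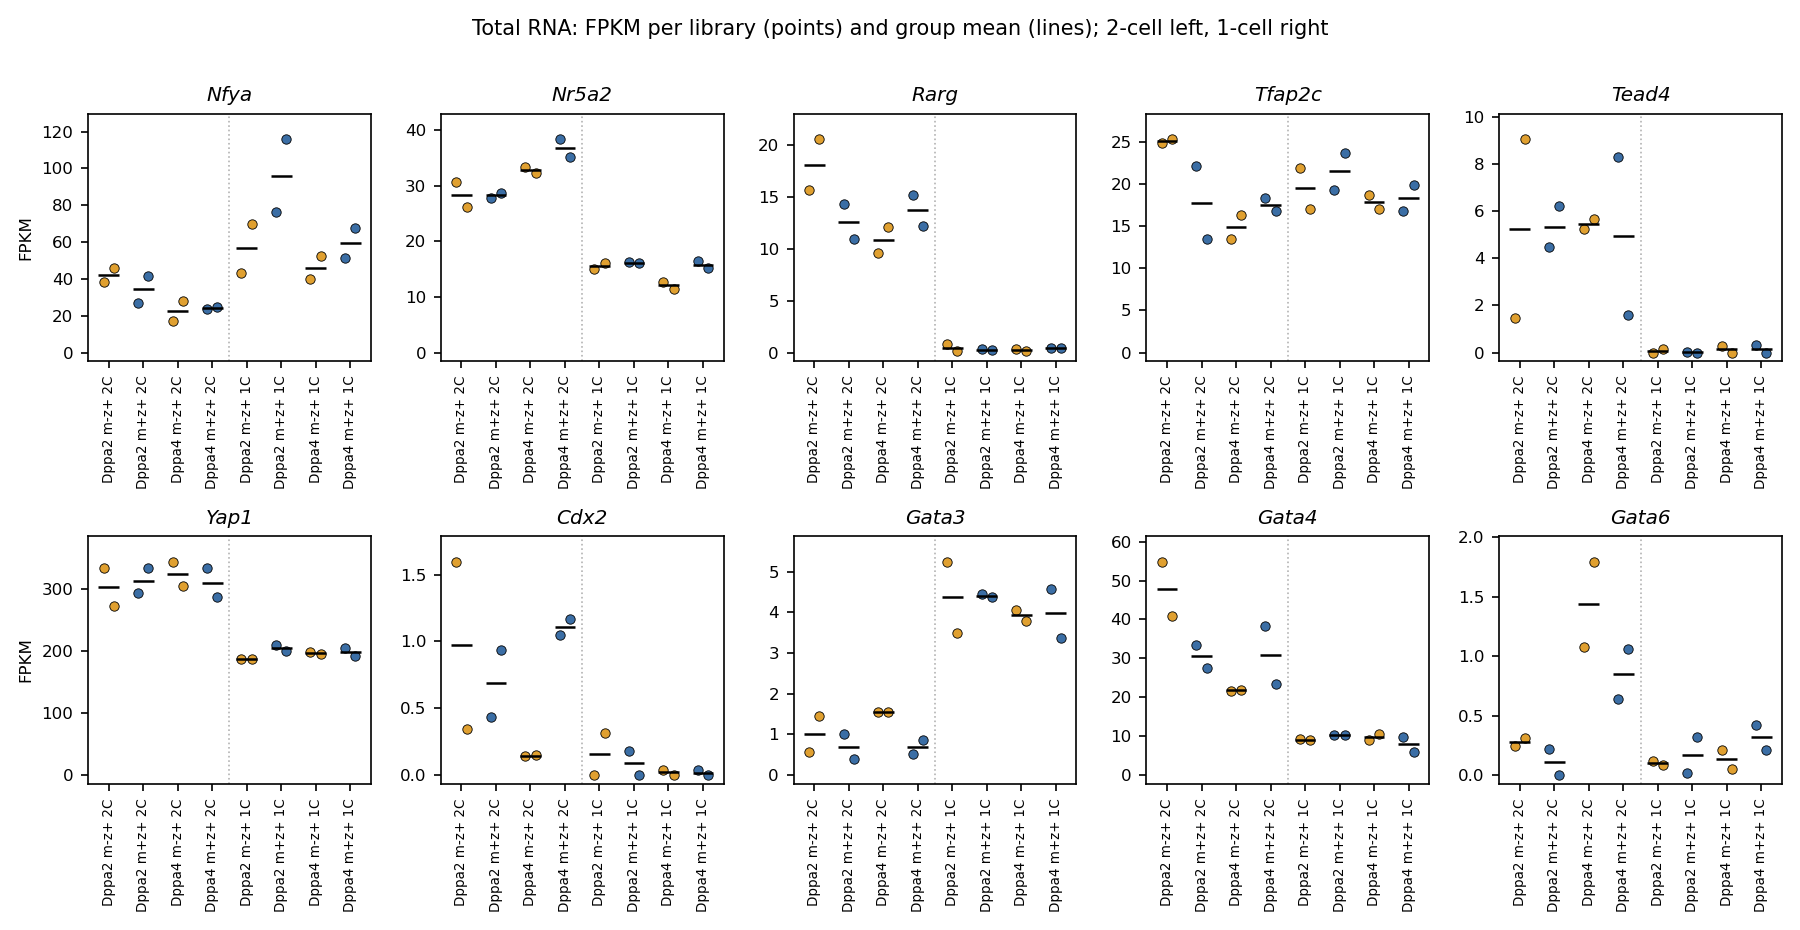
FPKM of the 10 genes in total RNA, 1 panel per gene with its own linear axis from 0; points are libraries, lines are means of the 2 libraries, orange is m-z+ and blue m+z+, with 2-cell groups left of the dotted line and 1-cell groups right of it. Rarg, Tead4, Yap1, Nr5a2 and Gata4 are higher in all 8 2-cell libraries than in any 1-cell library, and Gata3 is lower in all 8.

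Between the stages, 5 or 6 of the 10 genes rose in each genotype of the total RNA data and 1 or 2 fell (limma, log2(FPKM + 1), Benjamini-Hochberg adjusted p under 0.05 over all genes tested). In Dppa2 m-z+ embryos 5 rose and 1 fell, and in Dppa2 m+z+ embryos 5 rose and 2 fell. In Dppa4 m-z+ and in Dppa4 m+z+ embryos 6 rose and 2 fell, where the sixth was Gata6 in m-z+ and Cdx2 in m+z+, each tested only because of the group in which it was called. Rarg and Tead4 rose in each genotype and met the filter through 2-cell libraries alone, so their calls are a description too. With no filter neither gene lost a call. Change was the common state of genes between these stages: of all genes tested 28.8% rose and 28.4% fell in Dppa2 m-z+, 31.7% rose and 29.9% fell in Dppa2 m+z+, 25.3% rose and 25% fell in Dppa4 m-z+, and 24.9% rose and 24.2% fell in Dppa4 m+z+. The share of these factors that changed in either direction, 6, 7, 8 and 8 of 10 in that order of groups, thus stands beside 57.3%, 61.6%, 50.3% and 49.1% of all genes. In WT polyA RNA 2 of the 9 genes tested rose and 1 fell, where 17.4% of all genes rose and 8.42% fell, 25.9% in all. The 2-cell and 1-cell libraries did not overlap for 9 of the 10 genes in Dppa2 m-z+, 8 in Dppa2 m+z+, 10 in Dppa4 m-z+ and 9 in Dppa4 m+z+ embryos, beside 76.6%, 79.6%, 80% and 78.2% of all genes, and for 7 of 9 in WT polyA RNA, beside 66.4%. FPKM are shares of a library, so a gene can move because the rest of the RNA does, and in whole embryos fewer cells holding a transcript and less transcript per cell cannot be told apart.

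**Figure D2:**
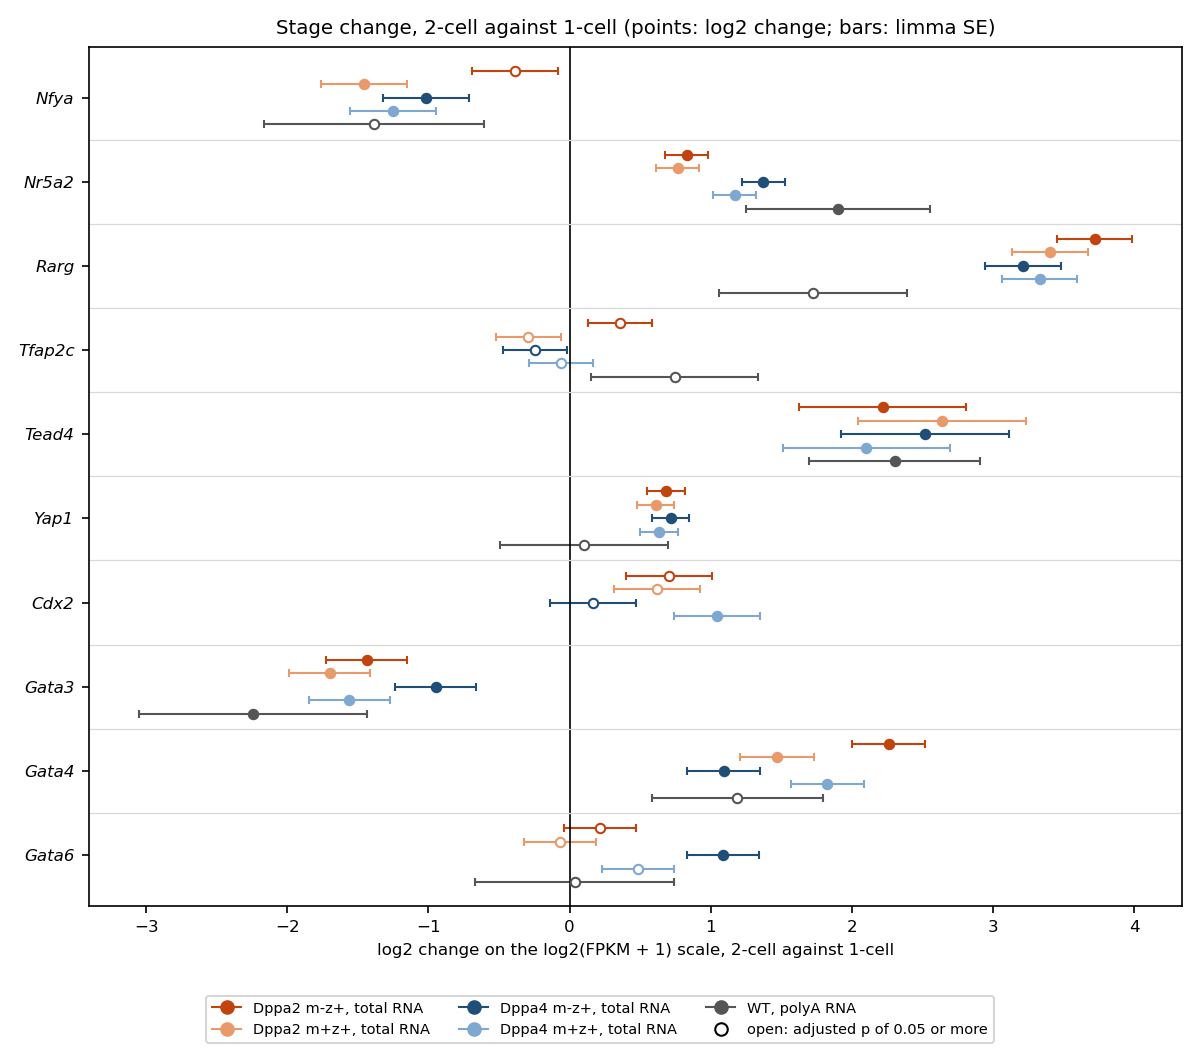
Stage change of the 10 genes, as the log2 change of 2-cell against 1-cell embryos on the log2(FPKM + 1) scale with its limma standard error, for 4 genotypes in total RNA and for WT in polyA RNA; filled points have an adjusted p under 0.05 and open points do not. Rarg lies farthest to the right in total RNA, Gata3 is left of 0 in every comparison, and Tfap2c has open points on both sides of 0; Cdx2 has no polyA value.

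Nfya encodes the DNA-binding regulatory subunit of NF-Y, a trimer that recognises the CCAAT box (ENSMUSG00000023994, mm10 chromosome 17, 48386885 to 48409906, minus strand). Its RNA fell between the stages in 3 of the 4 genotypes of the total RNA data. In Dppa2 m-z+ embryos it was 38.2 and 45.8 FPKM at the 2-cell stage and 43.2 and 69.9 FPKM at the 1-cell stage, so the groups overlapped. Dppa2 m+z+ embryos had 27.1 and 41.8 FPKM at the 2-cell stage, against 76.5 and 116 FPKM in 1-cell embryos, without overlap. The log2 change was -0.39 (SE 0.30, adjusted p = 0.295) in Dppa2 m-z+ and -1.46 (SE 0.30, adjusted p = 0.00115) in Dppa2 m+z+ embryos. The difference between these stage changes, 1.07 (SE 0.43), had an adjusted p of 0.509, and so was not shown. In the Dppa4 arm Nfya fell in both genotypes. It was 17.3 and 28 FPKM at the 2-cell stage and 40 and 52.3 FPKM at the 1-cell stage in Dppa4 m-z+ embryos (log2 change -1.02, SE 0.30, adjusted p = 0.0139). It was 23.6 and 25 FPKM at the 2-cell stage and 51.4 and 67.9 FPKM at the 1-cell stage in Dppa4 m+z+ embryos (log2 change -1.25, SE 0.30, adjusted p = 0.00444). The call in Dppa4 m-z+ embryos was lost when the second 1-cell library (-0.83) or the first 2-cell library (-0.69) was left out. In polyA RNA of WT embryos Nfya measured 1.76 and 8.59 FPKM at the 2-cell stage and 11.7 and 13.2 FPKM at the 1-cell stage, which do not overlap, with an adjusted p of 0.215.

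The partner subunits of NF-Y did not all move the same way. Nfyc, encoding a histone-fold subunit, fell in all 4 genotypes of the total RNA data, for example to 74.7 FPKM on average in 2-cell Dppa2 m-z+ embryos, against 130 FPKM at the 1-cell stage (log2 change -0.81, adjusted p = 0.00417). Nfyb, the other histone-fold subunit, rose in the Dppa2 arm, to 28.2 FPKM in 2-cell m-z+ embryos against 9.21 FPKM at the 1-cell stage (log2 change 1.45, adjusted p = 0.00485), and in WT polyA RNA, to 47.7 FPKM against 13.6 FPKM (1.68, adjusted p = 0.0266). It did not pass the test in the Dppa4 arm. Of the 4 listed genes of NF-Y and its cofactors, 1 or 2 rose in the Dppa2 arm and none in the Dppa4 arm, and 1 fell in each genotype of the total RNA data. Calls in either direction covered 57.3% of all genes in Dppa2 m-z+, 61.6% in Dppa2 m+z+, 50.3% in Dppa4 m-z+ and 49.1% in Dppa4 m+z+.

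Nr5a2 encodes an orphan nuclear receptor that binds DNA as a monomer (ENSMUSG00000026398, chromosome 1, 136842571 to 136960448, minus strand). Its RNA was already present at the 1-cell stage and rose in all 4 genotypes and in WT polyA RNA. In the Dppa2 arm it was 26.1 and 30.8 FPKM at the 2-cell stage and 15 and 16.1 FPKM at the 1-cell stage in m-z+ embryos, and 27.9 and 28.7 FPKM at the 2-cell stage and 16.1 and 16.3 FPKM at the 1-cell stage in m+z+ embryos. In the Dppa4 arm it was 32.3 and 33.4 FPKM at the 2-cell stage and 11.4 and 12.8 FPKM at the 1-cell stage in m-z+ embryos, and 35.3 and 38.4 FPKM at the 2-cell stage and 15.2 and 16.4 FPKM at the 1-cell stage in m+z+ embryos. Every 2-cell library thus lay above every 1-cell library. The log2 changes were 0.83, 0.77, 1.37 and 1.17 in that order of genotypes, each with SE 0.15, and adjusted p was at most 0.000767. In WT polyA RNA Nr5a2 was 25.8 and 28.4 FPKM at the 2-cell stage and 5.56 and 7.57 FPKM at the 1-cell stage, a log2 change of 1.90 (SE 0.65, adjusted p = 0.0391), a call that was lost when any 1 of the 4 libraries was left out, with no filter, with TPM scaling (1.75) and with median-ratio scaling (1.53). TPM scaling also ended the call in Dppa2 m+z+ embryos (0.33, adjusted p = 0.135).

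Rarg encodes retinoic acid receptor gamma, a ligand-activated factor that pairs with RXR (ENSMUSG00000001288, chromosome 15, 102234938 to 102257517, minus strand). It had the largest log2 stage change of the 10 genes in each genotype of the total RNA data. In 2-cell embryos it was 15.7 and 20.6 FPKM in Dppa2 m-z+, 14.4 and 10.9 FPKM in Dppa2 m+z+, 9.64 and 12.1 FPKM in Dppa4 m-z+, against 15.2 and 12.2 FPKM in Dppa4 m+z+. All 8 1-cell libraries lay between 0.155 and 0.797 FPKM. The log2 changes were 3.72, 3.40, 3.21 and 3.33 in that order (SE 0.27 each), with adjusted p of at most 1.13e-06. Since Rarg met the filter through 2-cell libraries alone, these calls are a description. In polyA RNA of WT embryos Rarg was 1.43 and 3.51 FPKM at the 2-cell stage and listed at 0 in both 1-cell libraries, and its adjusted p of 0.0663 missed the threshold. Scaling the libraries to TPM, which sets every library to the same sum, brought Rarg past the threshold there (log2 change 2.20), and so did a pseudocount of 0.1 (4.55, adjusted p = 0.0043).

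The 250 bases before the transcription start are shown for 3 genes that rose in every genotype of the total RNA data and have an entry in the RefSeq promoter table (build GRCm38.p6), in the window nearest the gene start of the annotation, 5′ to 3′ on the minus strand. Capitals mark a match, on either strand, to any of 7 motifs for the factors treated here. The motif of NF-Y was CCAAT, that of NR5A2 was AAGGTCA, and that of retinoic acid receptors was a single AGGTCA, which also lies inside the NR5A2 motif. For TEAD factors the letters were GGAATG, and for GATA factors the motif searched was AGATAA. For AP-2 factors it was GCCNNNGGC, and for the homeobox factor CDX2 it was TTTATG. The windows lie at chr1:136960449-136960698 for Nr5a2, chr15:102257523-102257772 for Rarg and chr9:8004597-8004846 for Yap1.
Nr5a2: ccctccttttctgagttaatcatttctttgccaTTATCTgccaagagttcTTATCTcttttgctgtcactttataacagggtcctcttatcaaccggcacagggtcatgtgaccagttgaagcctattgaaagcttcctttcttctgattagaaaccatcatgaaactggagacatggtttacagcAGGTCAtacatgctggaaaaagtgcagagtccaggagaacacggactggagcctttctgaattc
Rarg: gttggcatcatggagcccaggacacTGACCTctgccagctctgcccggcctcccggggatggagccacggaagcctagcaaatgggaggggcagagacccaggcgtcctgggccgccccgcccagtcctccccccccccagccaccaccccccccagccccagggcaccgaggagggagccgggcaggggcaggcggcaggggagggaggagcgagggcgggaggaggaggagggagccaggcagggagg
Yap1: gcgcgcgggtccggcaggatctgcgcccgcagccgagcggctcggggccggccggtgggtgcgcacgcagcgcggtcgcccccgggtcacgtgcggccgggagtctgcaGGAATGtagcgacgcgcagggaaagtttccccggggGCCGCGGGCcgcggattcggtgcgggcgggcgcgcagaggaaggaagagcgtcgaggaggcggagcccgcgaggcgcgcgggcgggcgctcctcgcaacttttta
The window of Nr5a2 held AGGTCA once, with its first base at position -64 from the start, and AGATAA 2 times. That of Rarg held AGGTCA once, at position -225, on the opposite strand. That of Yap1 held GGAATG once, at position -141, and GCCNNNGGC once, at position -105. Of all 32851 windows of the same length, 33.8% held CCAAT, 4.08% AAGGTCA, 14% AGGTCA, 12.6% GGAATG, 9.99% AGATAA, 13.7% GCCNNNGGC and 10.8% TTTATG. Of the 6 of the 10 genes with an entry (these 3 and Gata3, Cdx2 and Nfya), the window nearest the annotated gene start held CCAAT in Cdx2 alone. Some genes have further RefSeq starts, and over all windows CCAAT was also in 1 of 2 windows of Nr5a2 and in 1 of 3 windows of Nfya. Base composition differed among the 3 windows, with 43.2% G or C for Nr5a2, 74.4% for Rarg and 76.4% for Yap1, beside a median of 52.4% over all windows. A match is a description of letters and not a site shown to be bound.

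Tfap2c encodes an AP-2 factor that later acts in trophectoderm and germ cells (ENSMUSG00000028640, chromosome 2, 172549593 to 172558622, plus strand). It was the one gene of the 10 expressed above 1 FPKM in all 32 libraries that passed no stage test. In total RNA it ranged from 13.5 to 25.3 FPKM at the 2-cell stage and from 16.9 to 23.8 FPKM at the 1-cell stage. The log2 changes were 0.36 in Dppa2 m-z+, -0.29 in Dppa2 m+z+, -0.25 in Dppa4 m-z+ and -0.06 in Dppa4 m+z+ embryos, each with SE 0.23, and adjusted p was at least 0.195. The value of Dppa2 m+z+ embryos rested on libraries that differed, 22.2 and 13.5 FPKM at the 2-cell stage; without the first of them (log2 change -0.63), or with TPM scaling (-0.75), Tfap2c was called lower at the 2-cell stage. In WT polyA RNA it was 11.5 and 17.3 FPKM at the 2-cell stage and 6.46 and 9.93 FPKM at the 1-cell stage (log2 change 0.74, SE 0.59, adjusted p = 0.396).

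Tead4 and Yap1 encode the DNA-binding and the coactivating partner of the Hippo pathway's nuclear output, and their RNAs started from opposite levels. Tead4 (ENSMUSG00000030353, chromosome 6, 128224288 to 128300823, minus strand) was listed at 0 in 4 of the 8 1-cell total RNA libraries and at 0.309 FPKM or less in the others. At the 2-cell stage it was 1.47 and 9.03 FPKM in Dppa2 m-z+, 4.46 and 6.22 FPKM in Dppa2 m+z+, 5.22 and 5.64 FPKM in Dppa4 m-z+, against 8.29 and 1.60 FPKM for Dppa4 m+z+ embryos. Replicates differed most in Dppa2 m-z+ and Dppa4 m+z+, but no 2-cell library overlapped a 1-cell library. Tead4 rose in all 4, by log2 changes of 2.22 (adjusted p = 0.00625), 2.64 (0.00191), 2.52 (0.00347) and 2.1 (0.0105), each with SE 0.59. Since Tead4 met the filter through 2-cell libraries alone, these calls are a description. The call was lost in Dppa2 m-z+ embryos without the second 2-cell library (1.21), and in Dppa4 m+z+ embryos without the first 2-cell library (1.19) or the second 1-cell library (1.91). A fit of the compared groups alone also ended these calls (adjusted p = 0.0567 and 0.0594). In polyA RNA of WT embryos Tead4 was 6.53 and 2.24 FPKM at the 2-cell stage and listed at 0 in both 1-cell libraries, and it rose (log2 change 2.30, SE 0.60, adjusted p = 0.00893). That call was lost without either 1-cell library (2.30 each), without the first 2-cell library (1.69) and in a fit of the compared groups alone (adjusted p = 0.0584).

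Yap1 (ENSMUSG00000053110, chromosome 9, 7931999 to 8004596, minus strand), whose protein is excluded from the nucleus when Hippo signalling is on, rose by a small factor on a high level in total RNA. It was 333 and 272 FPKM at the 2-cell stage and 187 and 187 FPKM at the 1-cell stage in Dppa2 m-z+ embryos, and 293 and 333 FPKM at the 2-cell stage and 210 and 199 FPKM at the 1-cell stage in Dppa2 m+z+ embryos. In the Dppa4 arm it was 343 and 304 FPKM at the 2-cell stage and 198 and 195 FPKM at the 1-cell stage in m-z+ embryos, and 333 and 287 FPKM at the 2-cell stage and 205 and 192 FPKM at the 1-cell stage in m+z+ embryos. The log2 changes were 0.68, 0.61, 0.72 and 0.63 in that order (SE 0.13 each), with adjusted p of at most 0.0017. TPM scaling moved the median change of all genes by -0.20 to -0.36 in these 4 comparisons, and with it the calls of Yap1 were lost in Dppa2 m+z+ (0.15), Dppa4 m-z+ (0.36) and Dppa4 m+z+ (0.28). Relative to the median of all genes Yap1 was higher by 0.55 to 0.68 as measured and by 0.44 to 0.60 with TPM scaling. Yap1 did not pass the test in WT polyA RNA, with 27.7 and 32.1 FPKM in WT 2-cell and 22.4 and 34.1 FPKM in WT 1-cell embryos (log2 change 0.10, SE 0.59, adjusted p = 0.954).

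Among 22 other genes of the Hippo pathway, all tested in total RNA, 8 rose and 4 fell in Dppa2 m-z+, 10 rose and 4 fell in Dppa2 m+z+, 5 rose and 3 fell in Dppa4 m-z+ and 7 rose and 4 fell in Dppa4 m+z+ embryos. Of all genes 57.3%, 61.6%, 50.3% and 49.1% were called in either direction in that order of groups. The list's median log2 change was 0.46, 0.43, 0.20 and 0.25 in that order, beside 0.02, 0.06, 0.03 and 0.04 over all genes. Among those that rose were Ajuba, a LIM protein that binds LATS kinases, and Wwtr1, the YAP1 paralogue TAZ. Ajuba rose to 12.4 FPKM on average in 2-cell Dppa2 m-z+ embryos, against 0.0267 FPKM at the 1-cell stage (log2 change 3.71, adjusted p = 1.44e-07), and Wwtr1 to 7.19 FPKM, against 0.179 FPKM (2.79, adjusted p = 4.44e-06). Both also rose in the other 3 genotypes and in WT polyA RNA. In the 1-cell groups Ajuba averaged at most 0.118 FPKM and Wwtr1 at most 0.674 FPKM, below the 1 FPKM of the filter. Their calls are therefore a description. Wwc1, encoding the upstream scaffold KIBRA, fell in all 4, to 3.97 FPKM in 2-cell Dppa2 m-z+ embryos against 10.6 FPKM at the 1-cell stage (-1.22, adjusted p = 0.000402).

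Cdx2 encodes the caudal-type homeobox factor of trophectoderm (ENSMUSG00000029646, chromosome 5, 147300805 to 147307270, minus strand), and its RNA was scarce at both stages. In 2-cell total RNA it was 1.59 and 0.348 FPKM in Dppa2 m-z+, 0.435 and 0.937 FPKM in Dppa2 m+z+, 0.142 and 0.15 FPKM in Dppa4 m-z+, against 1.05 and 1.17 FPKM for Dppa4 m+z+ embryos. In 1-cell total RNA it was listed at 0 in 4 of 8 libraries and at 0.316 FPKM or less in the others. Cdx2 passed the stage test in Dppa4 m+z+ embryos, the group through which it met the filter (log2 change 1.05, SE 0.30, adjusted p = 0.0124), a call lost without either 1-cell library (1.08 and 1.02) and without the second 2-cell library (1.01). It did not pass in Dppa2 m-z+ (0.71, adjusted p = 0.0638), Dppa2 m+z+ (0.62, adjusted p = 0.0956) or Dppa4 m-z+ embryos (0.17, adjusted p = 0.672). It was called in Dppa2 m-z+ embryos without the second 2-cell library (1.18, adjusted p = 0.00461) and in Dppa2 m+z+ embryos with a pseudocount of 0.1 (2.15, adjusted p = 0.0499).

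Gata3 encodes a zinc-finger factor that acts with CDX2 in trophectoderm (ENSMUSG00000015619, chromosome 2, 9857078 to 9890034, minus strand). Its RNA was higher in the 1-cell embryo, and it fell in every stage comparison. In 2-cell total RNA it was 0.565 and 1.45 FPKM in Dppa2 m-z+, 1.01 and 0.385 FPKM in Dppa2 m+z+, 1.55 and 1.56 FPKM in Dppa4 m-z+, against 0.515 and 0.858 FPKM for Dppa4 m+z+ embryos, while all 8 1-cell libraries lay between 3.38 and 5.24 FPKM. The log2 changes were -1.44 (adjusted p = 0.000909), -1.70 (0.000245), -0.95 (0.0154) and -1.56 (0.000691) in that order, each with SE 0.29. The call in Dppa4 m-z+ embryos was lost when any 1 of its 4 libraries was left out, with values from -0.99 to -0.91. In WT polyA RNA Gata3 was 3.44 and 1.39 FPKM at the 2-cell stage and 14.4 and 14.5 FPKM at the 1-cell stage (log2 change -2.24, SE 0.81, adjusted p = 0.0497). That call was also lost when any 1 of its 4 libraries was left out, with values from -2.69 to -1.80. It was lost as well with a pseudocount of 0.1 (-2.66, adjusted p = 0.154), no filter (adjusted p = 0.0992) and the replicate block (0.0595).

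The trophectoderm list, 15 genes of which 11 were tested, held 5 genes that rose and 3 that fell in Dppa2 m-z+ embryos and in Dppa2 m+z+ embryos, 4 that rose and 2 that fell in Dppa4 m-z+, and 6 that rose and 3 that fell in Dppa4 m+z+ embryos. These are 8, 8, 6 and 9 of 11, beside 57.3%, 61.6%, 50.3% and 49.1% of all genes, and the list's median log2 change was 0.83, 1.05, 0.58 and 0.92 in that order, beside 0.02, 0.06, 0.03 and 0.04 over all genes. Krt18, a keratin, Cldn6, a tight junction claudin, and Eomes, a T-box factor of trophoblast, rose in all 4. They averaged at most 0.547 FPKM in the 1-cell groups of total RNA, below the 1 FPKM of the filter. Their calls are therefore a description. Which 11 genes of the list were tested also depends on that filter. In Dppa2 m-z+ embryos Cldn6 averaged 6.11 FPKM at the 2-cell stage and was listed at 0 at the 1-cell stage, and Eomes averaged 5.49 FPKM and 0.315 FPKM (log2 change 2.27, adjusted p = 0.00028). Among 17 relatives and partners of GATA, CDX and AP-2 factors, of which 12 were tested, 4 rose and 5 fell in Dppa2 m-z+, 3 rose and 5 fell in Dppa2 m+z+, and 4 rose and 4 fell in Dppa4 m-z+ and in Dppa4 m+z+ embryos. These counts stand beside the same 57.3%, 61.6%, 50.3% and 49.1% of all genes called in either direction. The list's median log2 change was -0.28, -0.44, -0.32 and -0.16 in that order. Gata1 and Gata2, known from blood development, and the coactivator Cited1 rose in all 4 genotypes, for example Gata2 to 17.5 FPKM in 2-cell Dppa4 m-z+ embryos against 0.538 FPKM at the 1-cell stage (3.61, adjusted p = 2.04e-05). These genes averaged at most 0.613 FPKM in the 1-cell groups of total RNA, below the 1 FPKM of the filter, so their calls are a description. Blood cell markers moved the same way with stage, at 4.58 to 14.8 FPKM in 2-cell and at most 0.184 FPKM in 1-cell total RNA, where 3 of the 7 reached 1 FPKM at the 2-cell stage and the globins Hbb-bs and Hbb-bt were at 0 in every library, and their part in the rise of Gata1 and Gata2 was not tested. The coactivator Cited2 and the AP-2 gene Tfap2e fell in all 4, Tfap2e to 61.7 FPKM against 182 FPKM for Dppa4 m-z+ embryos (-1.54, adjusted p = 2.46e-05).

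Gata4 (ENSMUSG00000021944, chromosome 14, 63198922 to 63271692, minus strand), later a primitive endoderm and heart factor, rose in all 4 genotypes of the total RNA data. In the Dppa2 arm it was 54.8 and 40.9 FPKM at the 2-cell stage and 9.24 and 8.92 FPKM at the 1-cell stage in m-z+ embryos, and 33.4 and 27.6 FPKM at the 2-cell stage and 10.3 and 10.4 FPKM at the 1-cell stage in m+z+ embryos. In the Dppa4 arm it was 21.6 and 21.9 FPKM at the 2-cell stage and 8.94 and 10.5 FPKM at the 1-cell stage in m-z+ embryos, and 38.3 and 23.3 FPKM at the 2-cell stage and 9.91 and 5.97 FPKM at the 1-cell stage in m+z+ embryos. No 2-cell library overlapped a 1-cell library. The log2 changes were 2.26 (adjusted p = 1.03e-05), 1.47 (0.000326), 1.09 (0.0036) and 1.83 (9e-05) in that order, each with SE 0.26. The stage change was larger in m-z+ than in m+z+ embryos by 0.79 (SE 0.37, adjusted p = 0.581) in the Dppa2 arm and smaller by a difference of -0.73 (SE 0.37, adjusted p = 1) in the Dppa4 arm, neither of which passed. In polyA RNA of WT embryos Gata4 was 6.53 and 7.26 FPKM at the 2-cell stage and 1.80 and 3.28 FPKM at the 1-cell stage (1.19, SE 0.61, adjusted p = 0.167).

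Gata6 (ENSMUSG00000005836, chromosome 18, 11052064 to 11085635, plus strand), the earliest known marker of primitive endoderm among these factors, was low in every library. In total RNA it was 0 to 1.79 FPKM at the 2-cell stage and 0.0212 to 0.425 FPKM at the 1-cell stage. The highest values were 1.08 and 1.79 FPKM in 2-cell Dppa4 m-z+ embryos, against 0.214 and 0.055 FPKM at the 1-cell stage, where Gata6 was called higher (log2 change 1.09, SE 0.26, adjusted p = 0.00335). Gata6 reached 1 FPKM in 3 total RNA libraries, of which 2 are these 2-cell ones, so it was tested through the group where it is high and the call is a description. It did not pass in the other 3 genotypes, with log2 changes of 0.22, -0.07 and 0.48 in Dppa2 m-z+, Dppa2 m+z+ and Dppa4 m+z+ embryos, and the difference between the Dppa4 genotypes was 0.61 (SE 0.36, adjusted p = 1). Of 15 primitive endoderm genes, 11 tested in total RNA, 2 rose and 5 fell in Dppa2 m-z+, 1 rose and 4 fell in Dppa2 m+z+, none rose and 1 fell in Dppa4 m-z+, and 1 rose and 1 fell in Dppa4 m+z+ embryos. These are 7, 5, 1 and 2 of 11, beside the same shares of all genes, and the median log2 change was -0.49, -0.44, 0.15 and -0.18. Lamb1, a laminin chain, fell in all 4, to 18.2 FPKM in 2-cell Dppa2 m-z+ embryos against 89.4 FPKM at the 1-cell stage (-2.26, adjusted p = 4.73e-06).

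The genes of nuclear receptors and retinoid metabolism were 28, of which 19 were tested in total RNA. In Dppa2 m-z+ embryos 4 rose and 4 fell, in Dppa2 m+z+ 8 rose and 5 fell, in Dppa4 m-z+ 6 rose and 5 fell, and in Dppa4 m+z+ 5 rose and 4 fell. These are 8, 13, 11 and 9 of 19, beside 57.3%, 61.6%, 50.3% and 49.1% of all genes, and the median log2 change was -0.08, -0.17, 0.17 and -0.07. Nr2c2, the orphan receptor TR4, rose in all 4, to 30.1 FPKM in 2-cell Dppa2 m-z+ embryos against 3.03 FPKM at the 1-cell stage (log2 change 2.96, adjusted p = 8.99e-06). Genes that fell in all 4 were the orphan receptor gene Nr2c1 and 3 genes that handle the ligand: Crabp2, a retinoic acid carrier, Aldh1a2, which makes retinoic acid, and Rdh11, a retinol dehydrogenase. Crabp2 was 3.92 FPKM in 2-cell Dppa2 m-z+ embryos, against 98.3 FPKM at the 1-cell stage (-4.34, adjusted p = 1.22e-06), and Aldh1a2 1.36 FPKM, against 22.4 FPKM (-3.30, adjusted p = 3.15e-07). Crabp1, another carrier of retinoic acid, rose in all 4, for example to 1.90 FPKM in 2-cell Dppa4 m-z+ embryos against 0.0583 FPKM at the 1-cell stage (1.46, adjusted p = 0.000216). It averaged at most 0.112 FPKM in the 1-cell groups of total RNA, below the 1 FPKM of the filter, so these calls are a description.

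Loss of the maternal allele gave no call among the 10 genes at either stage or in either arm. For m-z+ against m+z+ embryos, limma called 0 of 10 in all 4 comparisons, where of all genes 0.0398% were called in the Dppa2 arm at the 1-cell stage, 0.186% in the Dppa2 arm at the 2-cell stage, 0.00664% in the Dppa4 arm at the 1-cell stage and 0% in the Dppa4 arm at the 2-cell stage. At an unadjusted p under 0.05 the counts of the 10 genes were 1, 2, 1 and 1 in that order, and of all 15068 genes 459, 1932, 192 and 402. The genes whose groups did not overlap numbered 3, 4, 3 and 7 of 10, beside 35.4%, 31.4%, 32.3% and 22.2% of all genes. The 7 of the Dppa4 arm at the 2-cell stage were lower in m-z+ for Nr5a2, Tfap2c, Rarg, Gata4 and Cdx2 and higher in m-z+ for Gata3 and Gata6. Of these, Cdx2 and Gata6 met the filter through groups of this comparison, so their place among the 7 is a description. Cdx2 was also the 1 gene with an unadjusted p under 0.05 there.

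**Figure D3:**
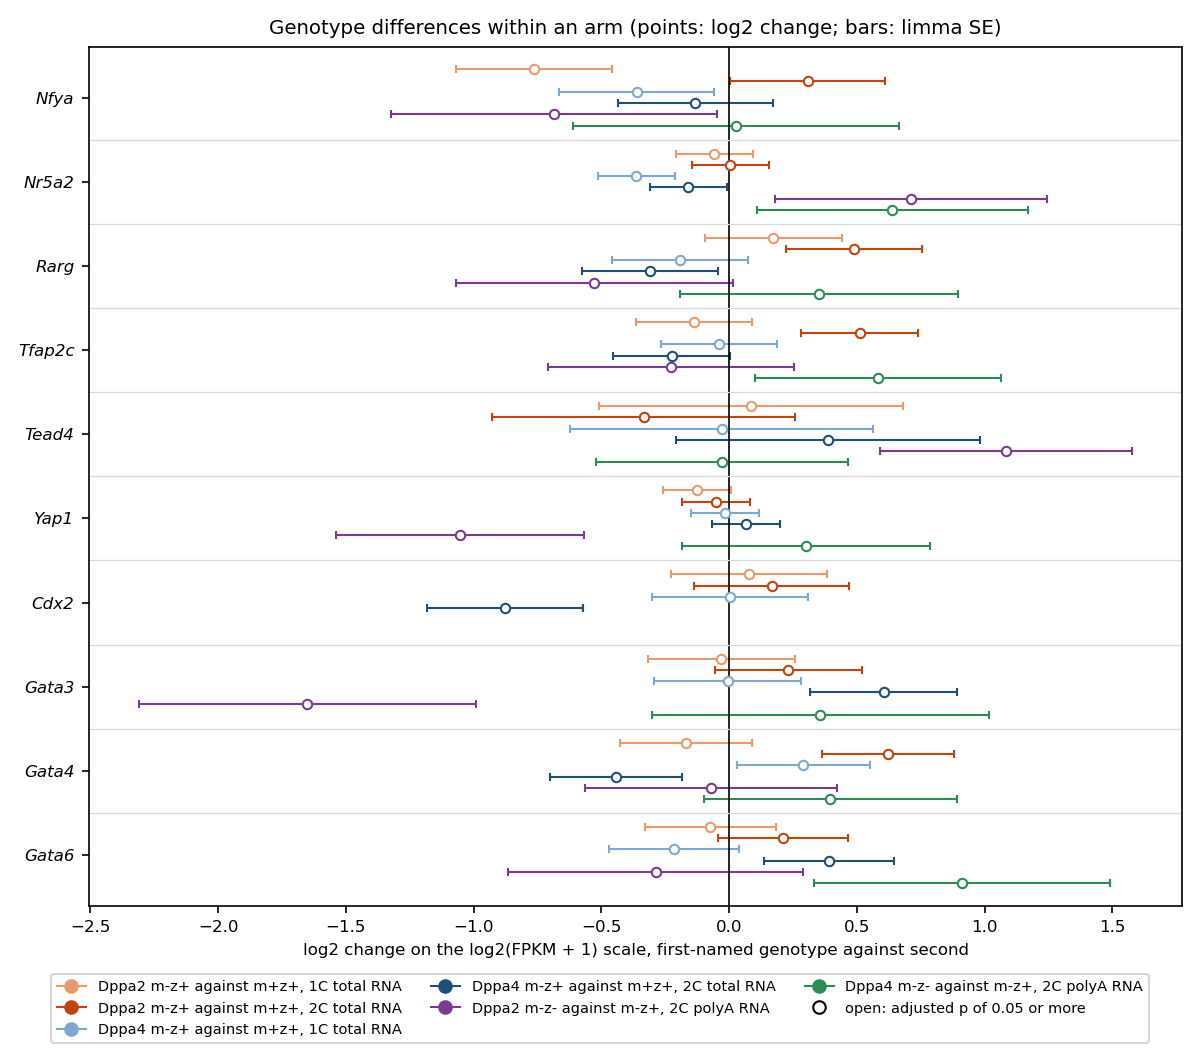
Genotype differences of the 10 genes within each arm, as log2 change on the log2(FPKM + 1) scale with its limma standard error, for m-z+ against m+z+ embryos in total RNA at each stage and m-z- against m-z+ embryos in polyA RNA. All points are open, since none had an adjusted p under 0.05; the polyA comparisons have the wider errors except for Tead4, and Cdx2 has no polyA value.

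In 1-cell embryos, whose RNA is mostly maternal, the 2 genes with an unadjusted p under 0.05 were Nfya and Nr5a2. Nfya was 43.2 and 69.9 FPKM in Dppa2 m-z+ embryos, against 76.5 and 116 FPKM in m+z+ embryos (log2 difference -0.76, SE 0.30, adjusted p = 1). The groups do not overlap, which fixes the sign when 1 library is left out, and leaving out each library in turn gave -1.11 to -0.42. In the Dppa4 arm Nfya was 40 and 52.3 FPKM in m-z+ and 51.4 and 67.9 FPKM in m+z+ embryos (-0.36, SE 0.30, adjusted p = 1). Nr5a2 was 11.4 and 12.8 FPKM in Dppa4 m-z+, against 15.2 and 16.4 FPKM for Dppa4 m+z+ embryos (-0.36, SE 0.15, adjusted p = 1), while in the Dppa2 arm it was 15 and 16.1 FPKM in m-z+ and 16.1 and 16.3 FPKM in m+z+ embryos (-0.06, SE 0.15). Yap1 allowed the narrowest statement, with 95% intervals of its log2 difference of -0.42 to 0.16 in the Dppa2 arm and -0.31 to 0.27 in the Dppa4 arm.

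In 2-cell embryos the differences of Gata4, Tfap2c and Rarg had opposite signs in the arms, but none passed the test. The signs were also opposite for Nr5a2, Tead4, Yap1, Cdx2 and Nfya, and alike for Gata3 and Gata6. Gata4, Tfap2c and Rarg are described together because their groups also did not overlap in either arm, a choice made after the values were seen. Gata4 was 54.8 and 40.9 FPKM in Dppa2 m-z+ embryos against 33.4 and 27.6 FPKM in m+z+ embryos (log2 difference 0.62, SE 0.26, adjusted p = 0.334), and 21.6 and 21.9 FPKM for Dppa4 m-z+ embryos against 38.3 and 23.3 FPKM in m+z+ embryos (-0.44, SE 0.26, adjusted p = 1). Tfap2c was 24.9 and 25.3 FPKM in Dppa2 m-z+ against 22.2 and 13.5 FPKM in m+z+ (0.51, SE 0.23, adjusted p = 0.372), and 13.5 and 16.4 FPKM in Dppa4 m-z+ against 18.3 and 16.8 FPKM in m+z+ (-0.23, SE 0.23, adjusted p = 1). Rarg was 15.7 and 20.6 FPKM in Dppa2 m-z+ against 14.4 and 10.9 FPKM in m+z+ (0.49, SE 0.27, adjusted p = 0.474), and 9.64 and 12.1 FPKM in Dppa4 m-z+ against 15.2 and 12.2 FPKM in m+z+ (-0.31, SE 0.27, adjusted p = 1). For none of these 3 genes did the groups of either arm overlap. Of all genes tested, 31.4% had groups without overlap at this stage for Dppa2, and 22.2% for Dppa4. How many genes did so for both, or had opposite signs, was not counted. Whether these 3 genes, or the opposite signs, stand out from all genes therefore cannot be told. Leaving out 1 library gave 0.42 to 0.83 in the Dppa2 arm and -0.79 to -0.10 in the Dppa4 arm for Gata4, 0.17 to 0.85 and -0.36 to -0.09 for Tfap2c, and 0.30 to 0.67 and -0.46 to -0.16 for Rarg. Groups that do not overlap keep their sign without any 1 library. The choice of these genes thus fixed the signs of these ranges, and only their widths are informative. A test of the difference between the arms, added after these values were seen, gave 1.07 (SE 0.37, adjusted p = 0.535) for Gata4, 0.74 (SE 0.32, adjusted p = 0.668) for Tfap2c, 0.80 (SE 0.38, adjusted p = 0.698) for Rarg and 1.04 (SE 0.43, adjusted p = 0.641) for Cdx2, and called 0 of the 10 genes and 0.00664% of all genes. The same test at the 1-cell stage called 0 of the 10 genes and 0.0199% of all genes. The arms also differ in strain background, which cannot be told apart from the targeted gene there.

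Cdx2 was 0.142 and 0.15 FPKM in Dppa4 m-z+ 2-cell embryos, against 1.05 and 1.17 FPKM in m+z+ embryos (log2 difference -0.88, SE 0.30, adjusted p = 1). In the Dppa2 arm it was 1.59 and 0.348 FPKM in m-z+ and 0.435 and 0.937 FPKM in m+z+ embryos, which overlap (0.17, SE 0.30, adjusted p = 0.881). Cdx2 reached 1 FPKM in 3 total RNA libraries, of which 2 are the Dppa4 m+z+ ones, so it entered the test through the group where it is high and its values there are a description. For Nr5a2, a factor of the 2-cell stage, the log2 difference had a 95% interval of -0.32 to 0.33 in the Dppa2 arm and -0.49 to 0.17 in the Dppa4 arm. Its groups in the Dppa4 arm did not overlap, at 32.3 and 33.4 FPKM in m-z+ against 35.3 and 38.4 FPKM in m+z+ embryos. For Yap1 the intervals were -0.34 to 0.24 and -0.22 to 0.35. For Tead4, with its wide replicate spread, they were -1.62 to 0.95 and -0.90 to 1.67, and a difference inside these bounds could not be told from none.

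In polyA RNA the 9 genes tested were compared between m-z- and m-z+ 2-cell embryos, which by their labels differ in the zygotic allele. In the Dppa2 arm Dppa2 RNA did not check that label. Limma called 0 of 9 in either arm, where it called 0.0054% of all genes for Dppa2 and 0.0162% for Dppa4. At an unadjusted p under 0.05 there were 3 of 9 for Dppa2 and 0 of 9 for Dppa4, and 1415 and 1296 of all 18506 genes. Groups did not overlap for 2 and 0 of 9, beside 10.4% and 9.83% of all genes.

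**Figure D4:**
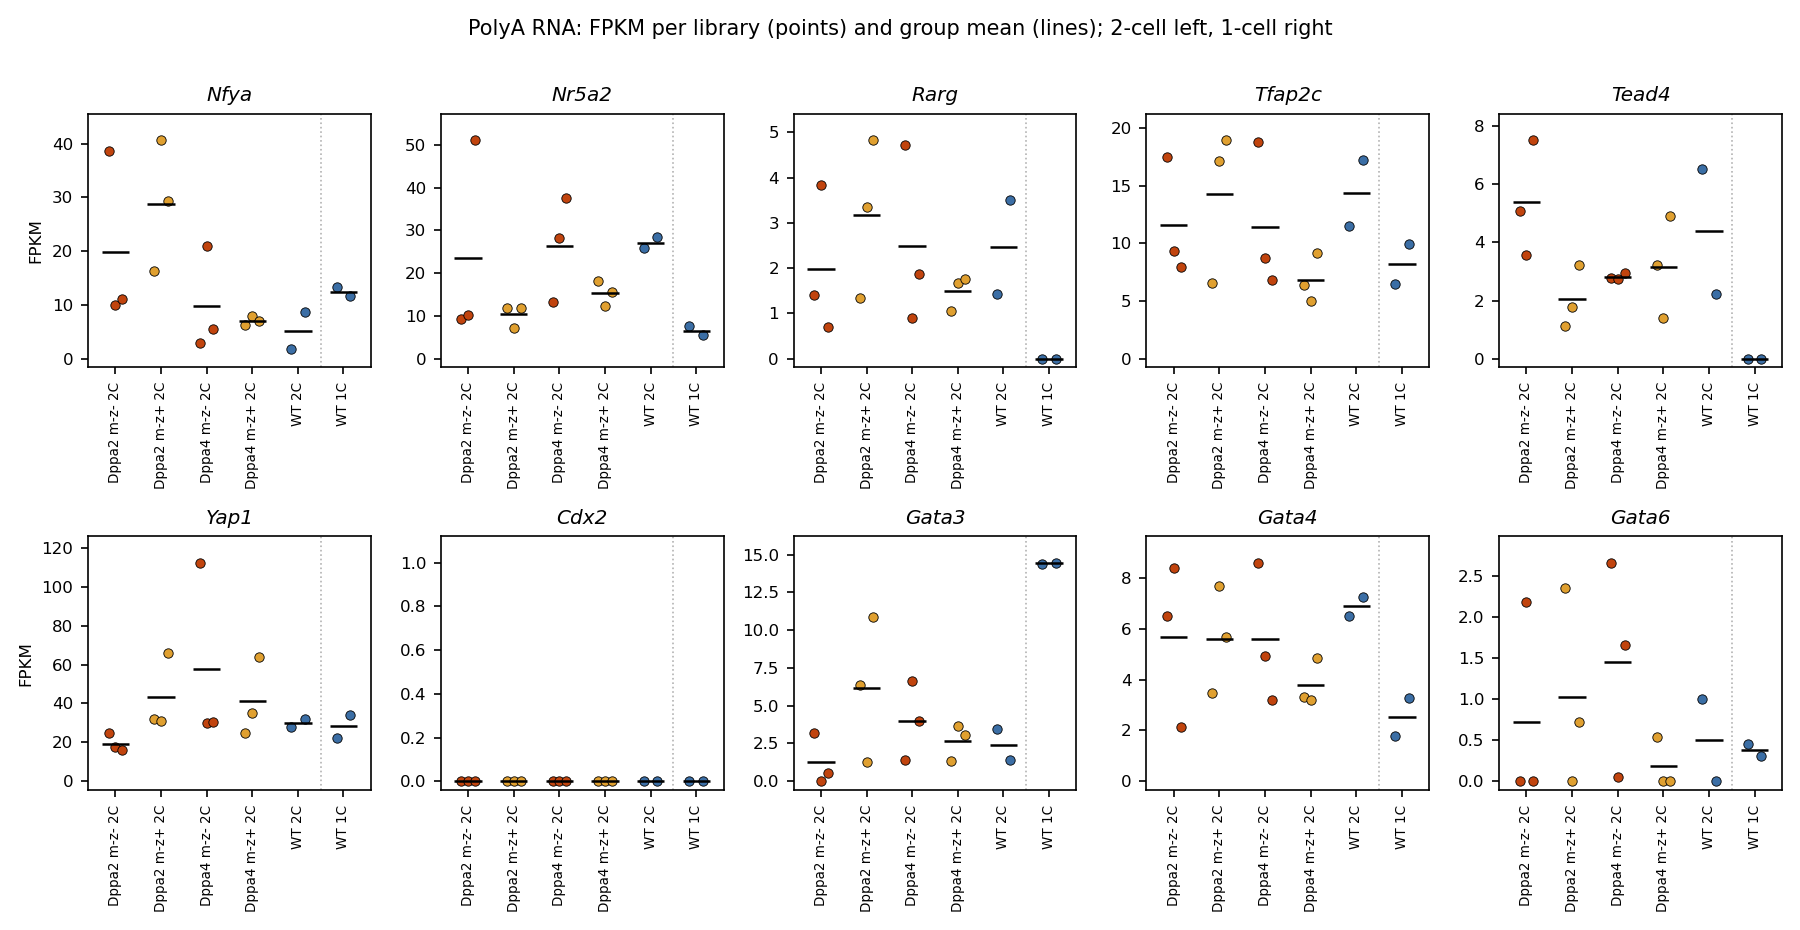
FPKM of the 10 genes in polyA RNA, 1 panel per gene with its own linear axis from 0; points are libraries, lines are group means (3 libraries per m-z- and m-z+ group, 2 per WT group), red is m-z-, orange m-z+ and blue WT, with 2-cell groups left of the dotted line and WT 1-cell embryos right of it. Replicates of a group differ widely, as for Nr5a2 at 9.27 to 51.1 FPKM in the libraries labelled Dppa2 m-z-, and Cdx2 is listed at 0 throughout.

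The 3 genes of the Dppa2 arm were Gata3, Tead4 and Yap1. Tead4 was 5.09, 3.57 and 7.52 FPKM in the libraries labelled Dppa2 m-z-, against 1.11, 1.79 and 3.22 FPKM in m-z+ embryos (log2 difference 1.08, SE 0.49, adjusted p = 0.629). Yap1 was 24.6, 17.5 and 15.8 FPKM in the libraries labelled Dppa2 m-z-, against 32.2, 31.1 and 66.1 FPKM in m-z+ embryos (-1.05, SE 0.48, adjusted p = 0.635). For both genes the groups did not overlap, with differences of opposite sign, but neither difference passed the test. Summed cumulus and granulosa markers did not overlap between these groups either, at 42.8 to 49.8 FPKM in the libraries labelled Dppa2 m-z- and 19 to 28 FPKM in m-z+ embryos, and their part in these values was not tested. In each of these groups 5 of the 9 markers were at 0 in every library, and 3 of the 9 reached 1 FPKM in any 2-cell polyA library. Gata3 was 3.19, 0 and 0.54 FPKM in the libraries labelled Dppa2 m-z-, against 6.36, 1.29 and 10.9 FPKM in m-z+ embryos, which overlap (-1.65, SE 0.66, adjusted p = 0.611). Without the third library labelled Dppa2 m-z-, which holds the globin transcripts, the differences were 0.85, -0.93 and -1.52 for Tead4, Yap1 and Gata3.

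Nr5a2 rests on that library: it was 9.27, 10.3 and 51.1 FPKM in the libraries labelled Dppa2 m-z-, against 11.9, 7.26 and 11.9 FPKM in m-z+ embryos. The log2 difference was 0.71 (SE 0.53, adjusted p = 0.768) with it and -0.05 without it. The library with 51.1 FPKM of Nr5a2 is the one with 1584 FPKM of blood cell markers, whose part in the Nr5a2 value was not tested. In the Dppa4 arm Nr5a2 was 13.3, 28.3 and 37.7 FPKM in m-z- and 18.3, 12.4 and 15.6 FPKM in m-z+ embryos, which overlap (0.64, SE 0.53, adjusted p = 0.849). Of the 3 Dppa4 m-z- libraries the first held the highest Yap1, 112 FPKM, beside 30 and 30.7 FPKM, and the second the highest Nfya, 20.9 FPKM, beside 2.83 and 5.55 FPKM. The other log2 differences of the Dppa4 arm lay between -0.03 for Tead4 and 0.91 for Gata6, with adjusted p of at least 0.808.

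The remaining genes overlapped between m-z- and m-z+ embryos in both arms. Tfap2c was 17.5, 9.38 and 7.95 FPKM in the libraries labelled Dppa2 m-z-, against 6.6, 17.2 and 19 FPKM in m-z+ embryos, and 18.8, 8.76 and 6.83 FPKM in Dppa4 m-z-, against 6.35, 5.01 and 9.21 FPKM in m-z+ embryos. Gata4 was 6.53, 8.42 and 2.15 FPKM in the libraries labelled Dppa2 m-z-, against 3.46, 7.68 and 5.69 FPKM in m-z+ embryos, and 8.61, 4.93 and 3.21 FPKM in Dppa4 m-z-, against 3.31, 3.19 and 4.84 FPKM in m-z+ embryos. Rarg stayed between 0.70 and 4.83 FPKM in all 12 libraries of these groups. Gata6 was listed at 0 in 2 of the 3 libraries labelled Dppa2 m-z-, in 1 of 3 Dppa2 m-z+, in none of the Dppa4 m-z- and in 2 of 3 Dppa4 m-z+ libraries, and reached 2.67 FPKM.

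Against WT 2-cell embryos, the 4 mutant groups share their 2 WT libraries, and for the Dppa2 arm genotype and strain background cannot be told apart. Limma called 0 of the 9 genes in all 4 comparisons, where 0.0973% of all genes were called for the libraries labelled Dppa2 m-z-, 0.113% for Dppa2 m-z+, 0.0648% for Dppa4 m-z- and 0% for Dppa4 m-z+; the counts of the 9 genes at an unadjusted p under 0.05 were 1, 2, 0 and 0, and of all genes 1149, 1435, 1976 and 1230. Groups did not overlap for 2, 2, 0 and 3 of 9 genes, beside 21.2%, 20.8%, 25.3% and 22.2% of all genes. For both Dppa2 groups Nfya had the largest log2 difference of the 9 genes, with 38.6, 9.94 and 11.1 FPKM in the libraries labelled Dppa2 m-z- and 16.3, 40.7 and 29.3 FPKM in Dppa2 m-z+ embryos, against 1.76 and 8.59 FPKM in WT embryos. Its log2 difference from WT was 1.76 (SE 0.71, adjusted p = 0.715) in the libraries labelled Dppa2 m-z- and 2.44 (SE 0.71, adjusted p = 0.287) in Dppa2 m-z+ embryos. Leaving out 1 library moved these to 0.86 to 2.65 and to 1.54 to 3.34, and the WT libraries themselves differ. Nr5a2 was 11.9, 7.26 and 11.9 FPKM in Dppa2 m-z+ embryos, against 25.8 and 28.4 FPKM in WT embryos (-1.34, SE 0.59, adjusted p = 0.612), and 18.3, 12.4 and 15.6 FPKM for Dppa4 m-z+ embryos (-0.79, SE 0.59, adjusted p = 0.893). In Dppa4 m-z+ embryos the largest difference was that of Tfap2c, with 6.35, 5.01 and 9.21 FPKM, against 11.5 and 17.3 FPKM in WT embryos, without overlap (-0.98, SE 0.54, adjusted p = 0.808).

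Of the listed pathway genes 1 was called between genotypes. Crabp1, a retinoic acid carrier, fell in Dppa2 m-z+ 2-cell embryos, to 0.783 FPKM against 3.92 FPKM in m+z+ embryos (log2 change -1.46, SE 0.23, adjusted p = 0.0266), where 0.186% of all genes were called. A fit of the compared groups alone called 0 genes there, so this call is lost in it. None of the genes of the other 5 lists was called in any genotype comparison.

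Genes with a profile like that of a member were sought only for members whose group means spanned at least 2 log2 units in both tables, which left Tead4 and Nfya. Over the 8 total RNA and 6 polyA group means, and among 2924 genes, the closest to Tead4 by the smaller of the 2 correlations were Cchcr1 (r = 0.988), Sapcd2 (0.983) and Snrnp25 (0.982). Cchcr1 lay at 0.251 FPKM or less in 1-cell and at 1.58 to 10.6 FPKM in 2-cell total RNA. Those closest to Nfya were Smg9 (r = 0.873), Vps53 (0.829) and Nfrkb (0.821), and Nfrkb was 5.75 to 15.4 FPKM in 2-cell and 28 to 47.2 FPKM in 1-cell total RNA. The group means share their libraries, so these correlations describe the profile alone. For Tead4 they differ mainly by stage. For Nfya in polyA RNA they do not, with 28.7 FPKM in Dppa2 m-z+ and 19.9 FPKM in the 2-cell libraries labelled Dppa2 m-z-. WT embryos averaged 12.5 FPKM at the 1-cell and 5.18 FPKM at the 2-cell stage.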

How the data were processed

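The deposited values are FPKM per gene, which the authors made with HISAT2 2.1.0 and StringTie 1.3.3b on mm10, per the submitters' processing notes. The sources used here do not give their settings. The total RNA kit was stranded and the polyA kit was not, per the labels' protocols, so antisense reads cannot be told apart in polyA RNA; genes that overlap the 10 reached at most 0.795 FPKM. No counts were used, the depth is unknown and no counting interval is given. No per-sample column was left unused (0).

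Genes reaching 1 FPKM in 2 or more libraries were tested in each table with limma 3.58.1 (R 4.3.3, statmod 1.5.0) on log2(FPKM + 1). Which genes of a list were tested thus depends on that filter. The pseudocount of 1 understates the change of low genes. The fit held all 16 libraries of a table, 1 mean per group, with a trended and robust spread. Tests were two-sided, p was Benjamini-Hochberg adjusted over all genes tested, and a call is an adjusted p under 0.05. Rose and fell are used of calls only. The total RNA and polyA tables were tested separately. Scripts used python 3.11.15, pandas 2.3.3 and numpy 2.4.6, and the fit was tested on simulated data.

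The 10 genes and the 6 gene lists were chosen with earlier results of these data known. Besides the 10, the rule names at most 3 called genes per list and direction in a stage comparison, at most 5 per list in a genotype comparison, and the 3 genes most like a member; Nr2c1, named beside them, was chosen after its values were seen. The test of the difference between arms was added after the data were seen. Alternatives were a pseudocount of 0.1, no filter, TPM and median-ratio scaling, a fit of the compared groups alone, a replicate block and leaving out each library. Positions are of GENCODE M21.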

Additional observations from a re-analysis of the deposited data

How the results depend on the processing

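No call of the 10 genes changed direction under any alternative. Of 32 called values of these genes, TPM scaling lost 5, a fit of the compared groups alone 3, no filter 2, and median-ratio scaling, a pseudocount of 0.1 and the replicate block 1 each; of 151 values not called, TPM scaling and the pseudocount of 0.1 gained 2 each. Leaving out 1 library at a time lost 23 of 128 calls and gained 2 of 836. The calls of WT polyA RNA were the least stable: of 3 genes called, 1 was called with no filter, and 0 to 1 when a library was left out.

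The numbers of all genes called moved more. They were, in total RNA, 6 and 28 for Dppa2 m-z+ against m+z+ at the 1-cell and 2-cell stages, 1 and 0 for Dppa4 likewise, 0 and 1 for the difference between stage changes in the Dppa2 and Dppa4 arms, and 3 and 1 for the difference between arms at the 1-cell and 2-cell stages. With no filter these 8 numbers became 49, 111, 18, 54, 41, 19, 19 and 63. A pseudocount of 0.1 gave 1 for the Dppa4 arm at the 2-cell stage, 2 for the Dppa2 stage difference and 0 for the arms at the 2-cell stage. TPM scaling gave 16 for the Dppa2 arm at the 2-cell stage, 5 for the Dppa2 stage difference and 0 for the arms at the 2-cell stage; median-ratio scaling gave 2 for the Dppa4 arm at the 1-cell stage and 3 for the Dppa2 stage difference. A fit of the compared groups alone gave 0 for the Dppa2 arm at both stages, 0 for the Dppa4 stage difference, and 8 and 0 for the arms. Leaving out 1 library gave 2 to 6, 26 to 465, 0 to 2, 0 to 3, 0 to 154, 1 to 2, 1 to 5 and 0 to 66 in the order above. None of the 10 genes was called in these comparisons under any of these settings.

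In polyA RNA 1 and 3 genes were called for m-z- against m-z+, Dppa2 first and then Dppa4, and against WT 18 for the libraries labelled Dppa2 m-z-, 21 for Dppa2 m-z+, 12 for Dppa4 m-z- and 0 for Dppa4 m-z+. With no filter they became 6, 5, 30, 41, 27 and 21. Dppa2 m-z- against m-z+ gave 0 with the pseudocount of 0.1, either scaling, the block or the compared groups alone. Against WT, the pseudocount of 0.1 gave 11 for Dppa2 m-z- and 12 for Dppa2 m-z+, median-ratio scaling 5 for Dppa4 m-z+, and the compared groups alone 0, 0 and 1 for Dppa2 m-z-, Dppa2 m-z+ and Dppa4 m-z-, and 1 for Dppa4 m-z- against m-z+. Leaving out 1 library gave 0 to 32, 2 to 5, 1 to 13, 2 to 28, 2 to 20 and 0 to 2 in the order above, and 2762 to 3321 for the WT stage comparison, which had 4784. Apart from fewer or more genes, libraries or groups in a fit, the cause was not tested.

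Replicate numbers did not pair the libraries: deviations of same-numbered libraries correlated at -0.14 to 0.14 over 56 pairs of total RNA libraries and -0.18 to 0.12 over 36 pairs of polyA libraries. With the replicate block the count was 2 for the Dppa2 arm at the 1-cell stage and 0 for the arms at the 2-cell stage, 0 for Dppa2 m-z- against m-z+, and 9, 9 and 4 for Dppa2 m-z-, Dppa2 m-z+ and Dppa4 m-z- against WT. Of the 10 genes the block lost the call of Gata3 in WT polyA RNA (log2 change -2.24, adjusted p = 0.0595) and changed no other call. Without counts, how far depth limits the low genes Cdx2 and Gata6 is unknown.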
